A study of Rattus norvegicus with 8 samples.

Results

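The table of 3′ ends from the rat hypothalamus holds 463 sites, of 73922 in all, that its authors assigned to genes of the small and other RNA classes. A site was taken as a member when it had a gene, lay outside the mitochondrial chromosome and carried a Biotype entry other than protein_coding, lncRNA or pseudogene, with the lncRNA gene RGD1566401 left out. The members fell into 388 misc_RNA sites of 129 genes, 58 miRNA sites of 37 genes, 11 rRNA sites of 2 genes, 4 tRNA sites of 4 genes and 2 sites of Rmrp, the RNA of the ribonuclease MRP. Together they held 184697 of 13341135 reads (1.384%). Bc1, a small cytoplasmic RNA of neurons with 16040 reads at 1 site, is entered as lncRNA in the table and is therefore not a member.

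By their labels the libraries came from 8 adult male Long-Evans rats, all killed after 36 days. A control group of 4 was on standard rodent chow, and an obesity group of 4 had free access to a high fat diet. No other agent, allele or deletion is given for either group. Whole transcriptome termini site sequencing (WTTS-seq) fragments RNA, enriches pieces with a poly(A) tail and counts reads that start at the tail, so that a site is a cluster of RNA 3′ ends and its value is a read count. The libraries held 1417531 to 1957726 reads. All 10 hypothalamic markers of a fixed list were measured. Sim1 was at 0 in control library 1, and the other 9 had reads in each of the 8 libraries. At an unadjusted p under 0.05 (edgeR, gene sums) Sim1 and Crh were higher and Oxt and Avp lower in obesity, and 0 markers passed an adjusted p of 0.1. Over all 12255 genes 5.12% had an unadjusted p under 0.05. Gh1 of the anterior pituitary had 87 reads in obesity library 2 and at most 1 elsewhere, and Ttr of the choroid plexus had 144 reads in obesity library 4 and at most 2 elsewhere. Control library 1 had 14788 sites without a read and obesity library 1 had 10659, where the rest had 4062 to 6622, and at member sites these counts were 83 and 73 against 14 to 43. In bulk tissue, fewer cells of a type and less RNA per cell cannot be told apart.

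MicroRNAs are cut from a hairpin within a longer, capped and polyadenylated transcript, first by Drosha in the nucleus and then by Dicer in the cytoplasm. The mature strand then guides Argonaute proteins to messages through its seed. Ribosomal RNA of the large transcript is made by RNA polymerase I as a precursor that is cleaved into the 18S, 5.8S and 28S RNAs, whereas transfer RNA and Rmrp are products of RNA polymerase III. None of the mature forms carries a long poly(A) tail as a rule. A read at one of these genes in this assay therefore stands for a tailed precursor or fragment, or for priming at a stretch of A within an RNA, and which of these it was could not be told apart here. The mature miRNA itself is not counted.

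For 34 of the 37 miRNA genes RefSeq (assembly GRCr8) gave a sequence, and the 58 mature strands found had 58 different seeds. No sequence was found for Mir124-1, Mir124-3 and Mir3072, and only rno-miR-125b-1-3p was found for Mir125b1. Whether any of the 37 genes share a seed can therefore not be told from these strands. The mature strands of the 3 genes whose sites held the most reads under the naming rule, followed by those of 4 genes with a site at which the diet groups did not overlap, are printed with the seed (bases 2 to 8) in capitals.
Mir219-2, rno-miR-219a-5p: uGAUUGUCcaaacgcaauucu
Mir1188, rno-miR-1188-5p: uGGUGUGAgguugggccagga
Mir770, rno-miR-770-5p: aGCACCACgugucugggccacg
Mir665, rno-miR-665: aCCAGGAGgcugaggucccuua
Mir132, rno-miR-132-3p: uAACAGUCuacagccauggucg
Mir204, rno-miR-204-5p: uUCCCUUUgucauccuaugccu
Mir135b, rno-miR-135b-5p: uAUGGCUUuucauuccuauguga

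The class names did not hold for misc_RNA, which carried 47.56% of the member reads. By symbol, gene number or older name, 108 of its 129 genes were found in the GRCr8 gene table of RefSeq. There 71 were protein-coding, 29 were pseudogenes, 5 were transcribed pseudogenes, 3 were lncRNA genes and 0 were small RNA genes. The 71 protein-coding genes held 43.06% of the misc_RNA reads, the pseudogenes 27.72% and the transcribed pseudogenes 13.93%. Examples are Huwe1, a large ubiquitin ligase with 22 sites, Rab3gap1, a regulator of the vesicle protein Rab3, with 13, and Srrm4, a splicing factor of neurons, with 12. These sites are therefore called misc_RNA sites below, as the table has them, and not small RNA sites.

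Many of the misc_RNA genes are named as copies of another gene in GRCr8, and not all of these are pseudogenes there. At least 53 of the misc_RNA genes had a GRCr8 name built on that of another gene. The GRCr8 names Ndufb4l4, Rpl35al5, Zfp790l3 and Tpt1l3 are built in that way too and were not counted. The 53 counted held 51.61% of the misc_RNA reads, and for 37 of them the named parent was matched in the table. At 13 of these the copy held more reads than the parent. LOC100910850, named Morf4l1-ps4 in GRCr8, had 15404 reads against 395 for Morf4l1, a chromatin protein, so that 97.5% of the reads of the pair were placed on the copy. LOC688754, or Vdac1-ps11, had 1516 reads against 250 for Vdac1, the main channel of the outer mitochondrial membrane. A copy and its parent can share reads, and their values are uncertain for that reason.

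The share of the reads at misc_RNA sites was lower in obesity, while the shares of the other classes overlapped between the groups. Sites of misc_RNA held 0.749%, 0.732%, 0.666% and 0.659% of all reads in the 4 control libraries, given here and below in the order of their numbers, and 0.634%, 0.631%, 0.626% and 0.573% in the 4 obesity libraries. Every obesity library lay below every control library, with means of 0.701% ± 0.0455 and 0.616% ± 0.0288 (SD, n = 4). The same order held as a percent of the reads outside mitochondrial sites, at 0.703% to 0.791% in control and 0.599% to 0.679% in obesity. Of the 129 genes, 80 had a lower mean share in obesity and 49 a higher one. The 5 genes with the greatest loss, picked by that value, were LOC100910850, LOC680491, LOC100362895, RGD1562140 and LOC100360491, and they made up 59.48% of the difference. Without them the groups overlapped, at 0.423% to 0.472% in control and 0.373% to 0.436% in obesity. Both results follow in part from that choice and do not show that the difference rests on these genes. The 5 were also abundant, with 15404, 4823, 4839, 2911 and 3333 of the 87848 misc_RNA reads. Of the 4 astrocyte markers Aldoc was lower at an unadjusted p of 0.0196 (edgeR). Gfap and Slc1a3 had log2 fold changes of -0.23 and -0.13, and Aqp4 one of 0.35. The list median was -0.18, with summed levels of 1427 to 2004 CPM in control and 1049 to 1671 in obesity. Of the 2 microglia markers measured Csf1r was lower, at -0.80 (edgeR, unadjusted p 0.0419), while P2ry12 was at 0.07 (SE 0.54). The median of these 2 was -0.37, with summed levels of 53.8 to 95.9 CPM in control and 19.5 to 74.2 in obesity. Over all 12255 genes 5.12% had an unadjusted p under 0.05 (edgeR, gene sums). Neither Aldoc nor Csf1r passed an adjusted p of 0.1 (edgeR), and the part of these cell types in the misc_RNA share was not tested.

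**Figure D1:**
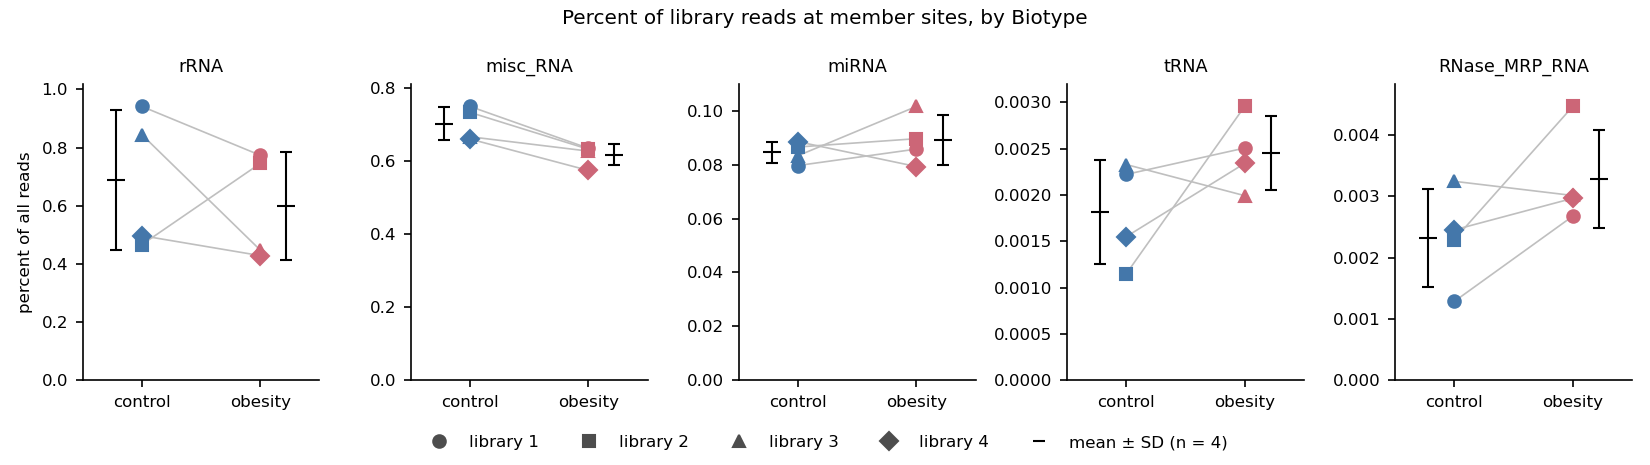
Percent of all reads of a library (vertical axes, each from 0) at the sites of each class, with control in blue, obesity in red, grey lines between libraries of the same number and bars for mean ± SD (n = 4). For misc_RNA the 4 obesity libraries, at 0.573% to 0.634%, lie below the 4 control libraries, at 0.659% to 0.749%, while the groups overlap for the other classes.

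Sites of rRNA held 0.941%, 0.466%, 0.845% and 0.497% of the control libraries and 0.773%, 0.745%, 0.448% and 0.428% of the obesity libraries. The means were 0.687% ± 0.241 and 0.599% ± 0.186 (SD, n = 4), a difference smaller than the spread within either group. For miRNA sites the control shares ran from 0.0797% to 0.0885% and the obesity shares from 0.0793% to 0.102%. For tRNA they were 0.00115% to 0.00233% and 0.00199% to 0.00296%, and for Rmrp 0.00129% to 0.00325% and 0.00268% to 0.00447%. All of these overlapped between the groups. No test was made on the shares.

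Site by site, 0 of 463 members passed an adjusted p of 0.1 (edgeR quasi-likelihood test, Benjamini-Hochberg over all 73922 sites), and among all sites just 1 did (0.00135%). The DESeq2 Wald test also gave 0 members. All members were tested, since the fit used no filter on low values. Members with an unadjusted p below 0.05 numbered 19, of which 10 were higher and 9 lower in obesity, or 4.104%, against a background of 3.14% of all sites. The DESeq2 Wald test gave 21, against 3.86% of all sites. Without obesity library 2, whose reads at mitochondrial sites were the highest of its group at 6.992% against 3.855% to 4.343%, there were 29 (6.26%), against 5.52% of all sites. In CPM (reads scaled to the TMM-adjusted library size), the groups did not overlap at 20 member sites, 9 higher and 11 lower, which is 4.32% against 3.11% of all sites. These shares are near the background and single out no site.

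With the library number as a block, 38 members had an unadjusted p under 0.05, 10 higher and 28 lower in obesity, and 0 an adjusted p under 0.1, where the whole table had 6.09% and 0.00541%. The 28 lower members are 6.05% of the members, and the matching background is 3.31%. The lean was not particular to the members. Of the 844 sites that the table classes as pseudogene, 60 were lower and 10 higher at that level with the block. Together these were 8.29% of that class, beside 8.21% of the members. Of the 28, 26 were misc_RNA sites and 2 were rRNA sites. The median log2 fold change of the members was -0.13, against 0.05 over all sites, and 203 members (43.84%) had a value above 0, against 52.39% of all sites. Members with 200 or more reads, of which there were 77, had a median of -0.30, against -0.08 for the 8824 sites of the table with as many reads. The sites that the table itself classes as pseudogene had a median of -0.17, with 40.76% above 0, beside -0.38 and 29.03% for the 62 misc_RNA sites of GRCr8 pseudogenes. For the 232 misc_RNA sites of GRCr8 protein-coding genes these values were -0.08 and 47.41%.

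**Figure D2:**
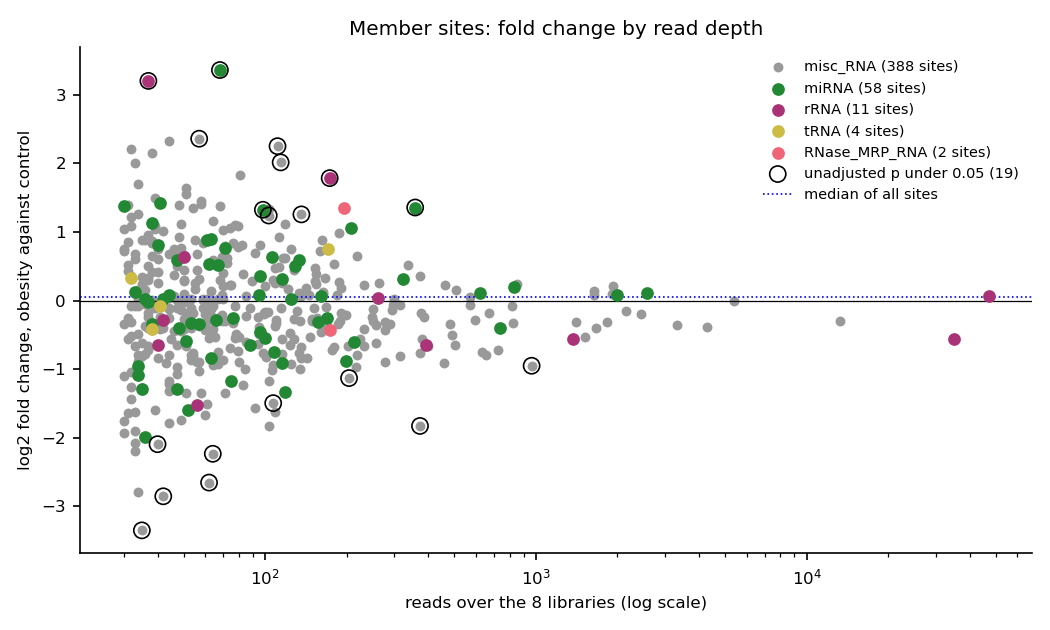
Log2 fold change of obesity against control (vertical axis) against reads over the 8 libraries (horizontal axis, log scale) for the 463 member sites, coloured by class, with circles around the 19 at an unadjusted p under 0.05 and a dotted line at the median of all sites. The fold changes spread from -3.35 to 3.36 at sites with few reads, and the 2 largest rRNA sites lie at 0.06 and -0.56.

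Ribosomal RNA supplied 45.8% of the member reads from 11 sites on the plus strand of chromosome 14 (Rnor_6.0), and 2 of them held 97.14% of these. Rn18s, the gene of the small subunit RNA, had its main site at chr14:46643840-46644107, the most abundant of the members. Control libraries 1 to 4 had 10444, 4712, 4435 and 2980 reads there, and obesity libraries 1 to 4 had 9762, 6366, 4672 and 3728. The groups overlapped throughout, library 1 was the highest in both, and the log2 fold change was 0.06 with an SE of 0.37 and an edgeR adjusted p of 0.9999. Leaving out 1 library moved that value between -0.23 and 0.46.

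Rn45s, the gene of the precursor, had its main site at chr14:46655140-46655334. Reads there were 5348, 3122, 7115 and 4438 in control and 3539, 4057, 3887 and 3559 in obesity. Control library 3 was the highest and control library 2 the lowest, so that the obesity libraries lay inside the control range. The level was 3239 ± 1434 CPM in control and 2194 ± 411 CPM in obesity (SD, n = 4), with a log2 fold change of -0.56 (edgeR, SE 0.30, adjusted p 0.9999). Leaving out 1 library moved it between -0.77 and -0.23, the latter without control library 3. The ratio of Rn18s to Rn45s reads at these sites does not depend on the library total. It was 1.953, 1.509, 0.623 and 0.671 in control and 2.758, 1.569, 1.202 and 1.047 in obesity. It was higher in obesity in 4 of 4 same-numbered pairs, although the groups overlapped, with means of 1.189 ± 0.652 and 1.644 ± 0.774 (SD, n = 4). That ratio was computed after the values were seen and was not tested.

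Among the small rRNA sites, the Rn45s site at chr14:46649131-46649153 had 5, 8, 6 and 17 reads in control and 61, 27, 18 and 31 in obesity. It was higher in 4 of 4 pairs, with a log2 fold change of 1.78 (SE 0.58, unadjusted p 0.008, edgeR adjusted p 0.9999). In CPM the groups overlapped, since control library 4 had 11.2 and obesity library 3 had 9.11. By contrast the Rn45s site at chr14:46645087-46645169, with 1371 reads, had a log2 fold change of -0.55 (SE 0.38). Rn45s was the member gene with the smallest p for site usage, which asks whether the sites of a gene move relative to each other (diffSpliceDGE, Simes p 0.0278, adjusted p 1). It was the only 1 of 86 member genes at an unadjusted p under 0.05, where the background was 1.39% of 7996 genes. With the block 3 of the 86 (3.49%) were under 0.05, against 2.79% of the 7996 genes. At an adjusted p under 0.1 there were 0 members, beside 0 genes in all, and with the block 0 members, beside 0.0125% of the genes. Copies of the ribosomal genes are near-identical, so the placement of their reads on 1 locus is uncertain.

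**Figure D3:**
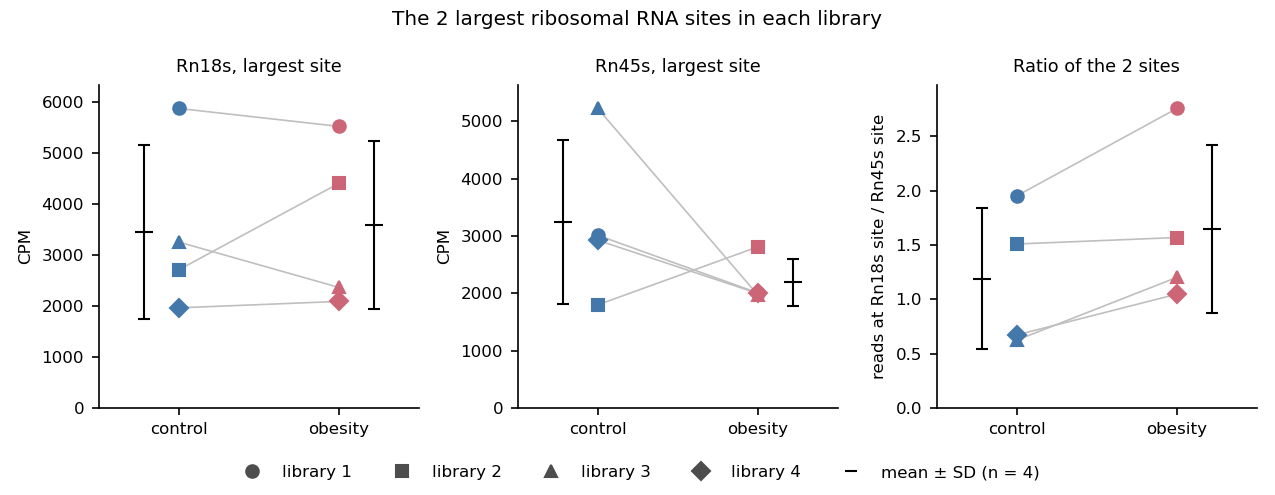
CPM at the largest Rn18s and Rn45s sites and the ratio of their reads (vertical axes, each from 0) in the 8 libraries, with grey lines between libraries of the same number and bars for mean ± SD (n = 4). The ratio is higher in obesity for each of the 4 numbers, while both levels overlap between the groups.

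Rmrp, whose RNA is part of the enzyme that cleaves the ribosomal precursor and mitochondrial primers, had 2 sites on the minus strand of chromosome 15. At chr15:27738966-27739026 the reads were 22, 21, 24 and 28 in control and 14, 16, 31 and 18 in obesity. At chr15:27739085-27739135, which lies upstream on that strand, they were 0, 19, 22 and 10 in control and 33, 49, 28 and 34 in obesity. As reads the groups did not overlap at the upstream site, but as CPM they did, since control library 3 had 16.15 and obesity library 3 had 14.17. The log2 fold changes were -0.43 (SE 0.45) and 1.35 (SE 0.75), with edgeR adjusted p-values of 0.9999. Of all Rmrp reads, the upstream site took 30.41% ± 22.63 in the control libraries and 64.61% ± 12.14 in the obesity libraries (SD, n = 4), and the usage test gave an unadjusted p of 0.212, adjusted 1. Each library had only 22 to 65 Rmrp reads.

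The 4 tRNA sites were thin. Trnad-guc, a transfer RNA for aspartate, had 22, 7, 20 and 11 reads in control and 39, 24, 21 and 27 in obesity, a log2 fold change of 0.75 (edgeR, SE 0.51, adjusted p 0.9999). The groups overlapped, since control library 1 exceeded obesity library 3. Trnar-ucu for arginine had 41 reads in all, Trnaa-ugc for alanine 38 and Trnat-agu for threonine 32, and their log2 fold changes of -0.08, -0.42 and 0.33 were smaller than their standard errors of 0.85 to 1.10.

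The miRNA sites were mostly small, with a median of 73 reads over the 8 libraries, and the best covered ones did not separate the groups. The site with the most reads belonged to Mir219-2 (chr3:8407002-8407008, minus strand), a miRNA of oligodendrocyte maturation, with 437, 318, 168 and 271 reads in control and 463, 243, 395 and 279 in obesity. Its groups overlapped, with a log2 fold change of 0.11 (SE 0.31). The second site of the gene (chr3:8407507-8407518) had 14, 11, 6 and 8 reads in control and 4, 5, 3 and 1 in obesity. It did not overlap and was lower in 4 of 4 pairs, with a log2 fold change of -1.60 (edgeR, SE 0.80, adjusted p 0.9999). The other sites of the most abundant 3 were those of Mir1188, with 1996 reads and a log2 fold change of 0.09 (SE 0.31), and Mir770, with 830 reads and 0.19 (SE 0.35).

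At each of the 10 miRNA genes with 2 or more sites, the sites together spanned more bases than the hairpin, from 300 to 1726 bases against hairpin lengths of 66 to 114 in GRCr8 for the miRNA genes, so that at least 1 site lay outside it. At the other 27 genes, with 1 site each, the position against the hairpin was not measured. The largest site lay between sites of a protein-coding gene on the same strand at 3 of the 37 genes, Mir204 in Trpm3, Mir338 in Aatk and Mir125a in LOC688452. It lay between sites of a lncRNA gene at 3 others, Mir125b1 and Mirlet7a-2 in Lnc215 and Mir770 in RGD1566401. For the rest no such gene was found.

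Groups did not overlap in CPM at 5 of the 58 miRNA sites (8.62%), against 3.11% of all sites. These 5 were noted for that reason after their values were seen. Besides the second Mir219-2 site these were sites of Mir665, Mir204, Mir132 and Mir135b, all higher in obesity in 4 of 4 pairs. Mir665 (chr6:133707746-133707752) had 0, 2, 2 and 1 reads in control and 7, 13, 29 and 14 in obesity, which makes 0.819 ± 0.64 CPM for control and 8.87 ± 4.43 CPM for obesity (SD, n = 4). Its log2 fold change of 3.36 (SE 0.89) had an unadjusted p of 0.00197 and an edgeR adjusted p of 0.9999, and 0.302 with the block. It was 2.95 to 3.74 when 1 library was left out. All control counts were at or under 3, so the fold rests on few reads.

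Mir204, which lies in an intron of the channel gene Trpm3 and is known from choroid plexus and retina, had 6, 14, 19 and 22 reads in control and 30, 24, 41 and 51 in obesity. The log2 fold change was 1.06 (SE 0.51, edgeR adjusted p 0.9999). The host gene Trpm3 had a log2 fold change of 0.35 (SE 0.18) in the gene sums. The choroid marker Ttr had 0, 0, 1 and 2 reads in control and 0, 0, 0 and 144 in obesity, and obesity library 4 also had the highest Mir204 level, at 28.59 CPM. Without that library the Mir204 value was 0.87 (SE 0.56, unadjusted p 0.147 by edgeR, beside 0.0548 with it), and the part of choroid tissue in it was not tested. Mir132, a miRNA induced by neuronal activity, had 5, 9, 5 and 7 reads in control and 10, 18, 30 and 14 in obesity at 1 of its 3 sites, a log2 fold change of 1.32 (SE 0.59), and 0.59 (SE 0.45) for the gene. At the Mir135b site the difference was small, at 11, 12, 7 and 10 reads against 14, 10, 16 and 16. As reads these groups overlapped, and in CPM they were parted only by 6.903 in control library 2 against 6.926 in obesity library 2.

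The miRNA genes fixed by name for their known place in the brain had reads at 8 genes. Mir124-1, of the miRNA most typical of neurons, had 5 sites and summed to 109, 218, 149 and 223 reads in control and 59, 111, 124 and 240 in obesity. As CPM the obesity library was the lower in 4 of 4 pairs while the groups overlapped, with a log2 fold change of -0.47 (SE 0.34) and an edgeR adjusted p of 0.942, or 0.277 with the block. Leaving out 1 library moved the value between -0.88, without obesity library 4, and -0.24, without obesity library 1. The others were Mir132, Mir137, Mir125a, Mir125b1, Mir124-3, Mir29b1 and Mirlet7a-2, with log2 fold changes between -0.73 and 1.15 and adjusted p-values of 0.942 to 0.992. For Mir29b1, Mir125a and Mir125b1 the direction turned when 1 library was left out.

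On chromosome 6, 18 sites of 10 miRNA genes lay on the plus strand within 217489 bases (chr6:133682965-133900453). This is the Dlk1 to Dio3 imprinted domain, in which long transcripts expressed from the maternal chromosome carry a large cluster of miRNAs. The 18 sites held 38.84% of the miRNA reads. Their summed level was 230.9, 302.6, 350.2 and 349.9 CPM in control and 349.3, 386.4, 413.1 and 322.4 in obesity. The groups overlapped, and library 4 went against the other numbers. Among the 18, 12 (66.67%) had a log2 fold change above 0, against 52.39% of all sites, and the median was 0.25. An unadjusted p under 0.05 (edgeR) was found at 2 (11.1%), against 3.14% of all sites. They were Mir665 and a Mir1188 site with 33, 7, 25 and 26 reads in control and 143, 16, 75 and 33 in obesity. The other 40 miRNA sites had a median of -0.13, with 19 above 0. The lncRNA gene RGD1566401, whose 84 sites span the first of these miRNA sites, had a log2 fold change of 0.48 (SE 0.21) in the gene sums and an edgeR adjusted p of 0.921.

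**Figure D4:**
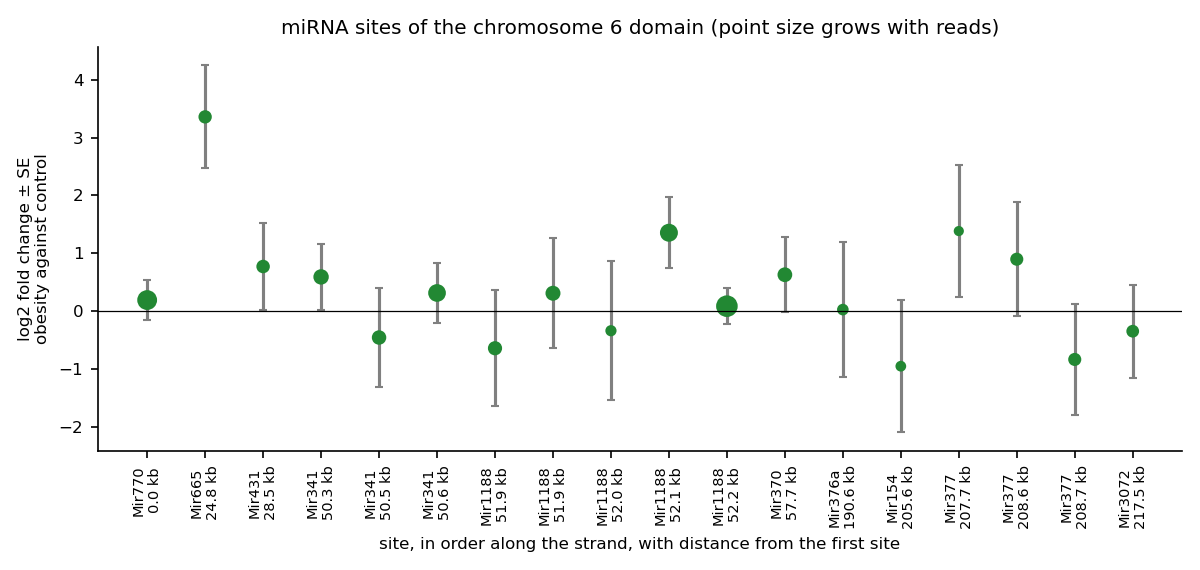
Log2 fold change ± SE (vertical axis) of the 18 miRNA sites of the chromosome 6 domain in their order along the strand, each labelled with its gene and its distance in kb from the first site. Mir665 lies at 3.36 and the other sites between -0.95 and 1.39, most within about their standard error of 0.

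Of the misc_RNA sites, those named by smallest p were thin for the most part. LOC680491, Hsp90aa1-ps16 in GRCr8 and so named after a chaperone gene, had the smallest p among the members at chr13:6344416-6344450. Reads there were 116, 45, 58 and 66 in control and 26, 12, 26 and 24 in obesity, with no overlap. The level was 44.31 ± 16.16 and 12.41 ± 2.816 CPM (SD, n = 4), the log2 fold change -1.83 (SE 0.41), the unadjusted p 0.000548 and the edgeR adjusted p 0.9999, or 0.117 with the block. This site held 7.734% of the reads of the gene. At the main LOC680491 site, 773 bases further upstream, the log2 fold change was -0.19 (SE 0.30).

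The other lower sites were those of RGD1559747, Vps13c, LOC100361008 and RGD1562690, with log2 fold changes of -2.65, -2.85, -0.95 and -3.35. LOC100361008 had 141, 83, 233 and 149 reads in control and 78, 74, 111 and 95 in obesity, and the groups overlapped. RGD1562690 had 17, 2, 13 and 0 reads against 3, 0, 0 and 0, so that 2 control libraries held most of its reads. The higher misc_RNA sites were those of LOC100362709, RGD1310209 and Rab3gap1. LOC100362709 (chr1:37559775-37559793) lies between sites of Adcy2, an adenylate cyclase, and had 1, 5, 7 and 4 reads in control and 10, 20, 35 and 29 in obesity, a log2 fold change of 2.25 (edgeR, SE 0.68, adjusted p 0.9999). RGD1310209, Elapor1 in GRCr8, had 4, 3, 8 and 5 reads against 7, 16, 32 and 39 at this site, and 1 other of its 7 sites went the opposite way at an unadjusted p of 0.048.

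The misc_RNA sites with the most reads did not separate the groups. LOC100910850 had 2477, 1818, 1440 and 1333 reads in control and 2138, 1211, 1752 and 1145 in obesity at its main site, a log2 fold change of -0.29 (SE 0.27). Huwe1 had 850, 702, 397 and 635 against 777, 431, 903 and 688 at its main site, a value of -0.01 (SE 0.27). LOC100362895, Hsp90aa1-ps17 in GRCr8, had 849, 368, 633 and 467 against 614, 281, 618 and 464, or -0.39 (SE 0.32). The groups overlapped at all 3.

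**Figure D5:**
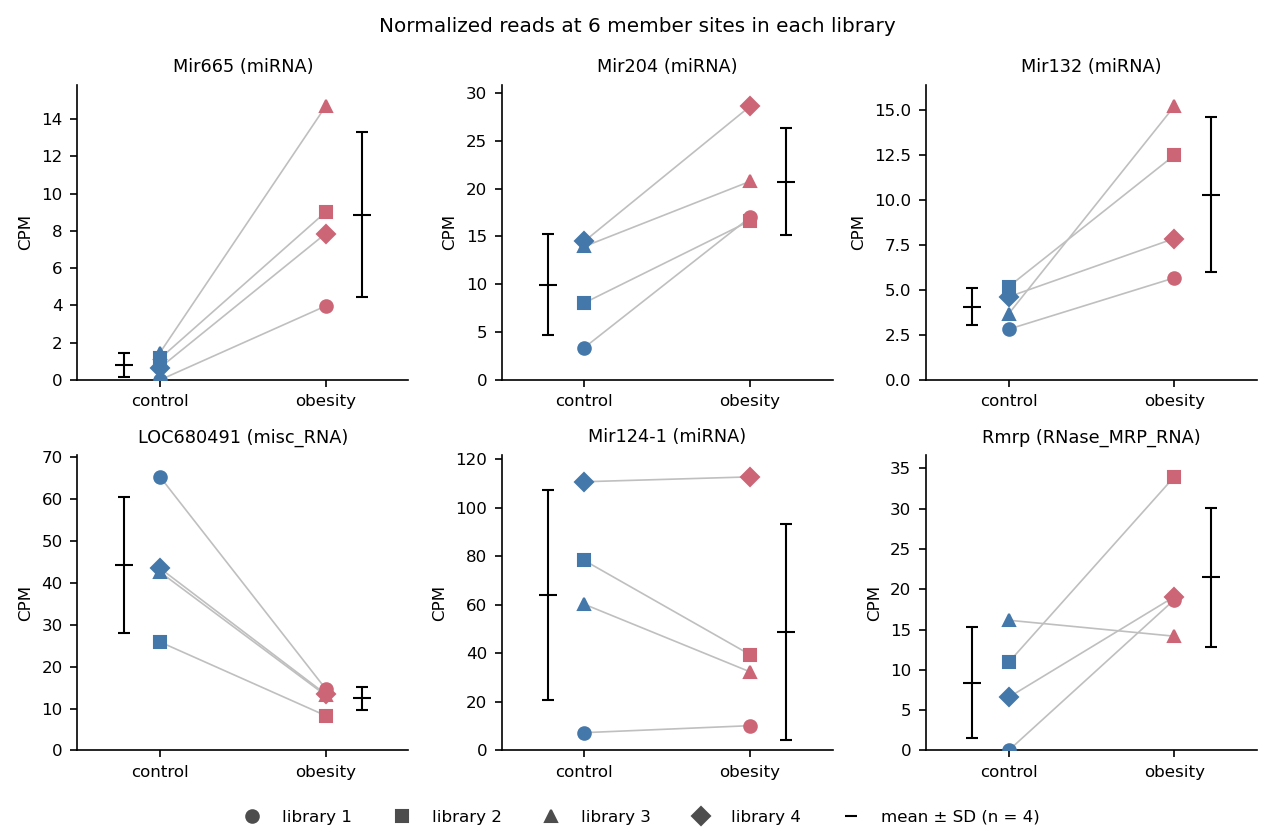
CPM (vertical axes, each from 0) at 6 member sites in the 8 libraries, with control in blue, obesity in red, grey lines between libraries of the same number and bars for mean ± SD (n = 4). Mir665, Mir204 and Mir132 are higher and LOC680491 is lower without overlap, the Mir124-1 site follows the library number, and the upstream Rmrp site overlaps at library 3.

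Summed by gene, 0 of 173 member genes passed an adjusted p of 0.1 (edgeR, 0% of the 12255 genes), and DESeq2 gave 0 as well. Genes with an unadjusted p below 0.05 numbered 14, of which 5 were higher and 9 lower, which is 8.09% against a background of 5.12%, and DESeq2 gave 13, against 5.89% of all genes. The block raised this to 26, with 5 higher and 21 lower, against 10.9% of all genes, and 0 members passed an adjusted p of 0.1 where 0.277% of all genes did. The 21 lower genes are 12.1% of the members, against 6.16% of all genes. The 5 higher genes were Mir204, Mir665, RGD1310209, LOC102555914 and LOC100362709. At each the groups did not overlap, which adds no support, since the genes were picked by p from the same values. The share of all genes without overlap is not given here. Among the lower genes RGD1562140 had 460, 464, 346 and 373 reads in control and 347, 322, 307 and 292 in obesity, also without overlap in CPM, a log2 fold change of -0.42 (edgeR, SE 0.20, adjusted p 0.921).

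Libraries of the same number resembled each other at many members. After the mean of the group was taken off, libraries of equal number had a correlation of 0.281 to 0.475 over member sites, and those of unequal number one of -0.328 to 0.0503. Over all sites the values were 0.264 to 0.377 and -0.199 to -0.0391. At the median member the number, which has 4 levels, took up 56.87% of the variation in log2 (CPM + 1) and the diet, with 2 levels, 8.498%, beside 54.32% and 7.539% at the median of all sites. Members with 200 or more reads reached a median of 68.37%, beside 61.04% for all sites of that depth. With 8 libraries a factor with more levels takes up more of the variation by chance, so the shares of number and diet are not on 1 scale. These shares are descriptions with n = 8 and were not tested, and the titles do not tell what libraries of a number have in common.

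Single members show the pattern plainly. LOC498555, Rplp2l2 in GRCr8, had the highest share among members with 200 or more reads, at 99.58%. The main Matr3-ps2 site, named after a nuclear matrix gene, had 12, 229, 53 and 121 reads in control and 19, 173, 65 and 143 in obesity. The order of the numbers was the same in both groups, with library 1 lowest and library 2 highest. At LOC680491, 2 sites 347 bases apart ran differently. The site at 6345598 had 25, 499, 93 and 178 reads against 11, 411, 68 and 123, while the main site at 6345223 had 458, 319, 197 and 280 against 414, 207, 300 and 261. The main Mir124-1 site had 13, 136, 82 and 168 reads against 18, 57, 64 and 201, whereas another of its sites had 62, 21, 30 and 12 against 30, 10, 12 and 21.

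The genes whose levels followed those of Rn18s most closely over the 8 libraries, among 67 member genes with 200 or more reads, were LOC100910850, Mettl16, LOC102551606, LOC100362999 and Dph7. Pearson's r of log2 (CPM + 1) was 0.836, 0.793, 0.787, 0.743 and 0.695. This is a description over libraries that share their numbers, and the median r of the 67 was -0.04.

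Proteins that make or bind these RNAs were read from fixed lists in the gene sums. The background for these lists is 5.12% of all 12255 genes at an unadjusted p under 0.05 (edgeR). The list of miRNA processing, with Drosha, Dgcr8, Dicer1 and the Argonautes, had 9 of 10 genes measured, 0 at an unadjusted p under 0.05 and a median log2 fold change of -0.07. The proteins of ribonucleases P and MRP had 5 of 10 measured, 0 at that level and a median of -0.04. Of the core proteins of nucleolar ribonucleoproteins 5 of 9 were measured, with a median of -0.41, and 1, Nop56, was lower at an unadjusted p of 0.0416. Of the factors of rRNA transcription 7 of 10 were measured, with a median of -0.21, and 1, Taf1b of the promoter complex, was higher at an unadjusted p of 0.00687, with 6, 12, 10 and 7 reads in control and 68, 12, 25 and 20 in obesity. Of the polymerase III list 11 of 12 were measured, with a median of -0.15, and 1, the subunit gene Polr3c, was higher at an unadjusted p of 0.00236, with 0, 0, 0 and 1 reads against 9, 2, 19 and 9. The 12 proteins that bind Bc1 had a median of -0.26, and 2 were lower at an unadjusted p under 0.05, Pabpc1 and Purb. At an adjusted p under 0.1 (edgeR over all genes) there were 0 genes in any of the 6 lists, and the median over all genes was 0.000722.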

How the data were processed

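Polyadenylated 3′ ends were measured in 8 hypothalamus libraries by WTTS-seq. The authors deposited raw read counts per site without normalization, 1417531 to 1957726 per library, with coordinates on Rnor_6.0. The submitters' processing notes name Bowtie2 2.2.3, and the rules for clustering sites and assigning genes are not given in the sources used here. The paper linked to the series describes another exposure, so its methods were not used. The lowest site total was 30 reads, so low sites had been removed before deposit. Reads carry no molecular identifiers. The median biological coefficient of variation by edgeR was 0.766 over all sites and 0.744 over members. A line without a site, which held the total of control library 1 (1710888), was left out. No genome sequence of this assembly was used, so A-rich priming and the sequence at a site were not examined.

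Groups were taken from the sample titles. Counts of all 73922 sites were fitted with edgeR 4.0.16 in R 4.3.3 (robust quasi-likelihood, TMM, no filter), with Benjamini-Hochberg adjustment over all sites and a threshold of 0.1. Gene values were sums of sites on the strand with most reads of the gene. Sites on the other strand numbered 10 among members. Usage was tested with diffSpliceDGE. Scripts were tested on simulated data. The named sites were, per class, up to 3 with the most reads, then the 5 higher and 5 lower with the smallest unadjusted p under 0.05, and every member past the threshold, of which there were 0. The named genes were those on a fixed list of known RNAs and the 5 most like Rn18s. Other items were named after their values were seen. The members and lists were chosen with earlier results of these data known. The labels number the libraries 1 to 4 in both groups, and same-numbered libraries deviated together (r 0.264 to 0.377 over all sites), so the number was used as a block in an alternative fit. Nothing but the label says that the libraries are separate animals, and p-values measure the spread between these libraries. The other alternatives were DESeq2 1.42.0, its size factors, filterByExpr, scaling without mitochondrial and member sites and leaving out each library.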

Additional observations from a re-analysis of the deposited data

Results flagged for a closer look

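Dixon's test at the 95% level was applied to the highest and lowest of the 4 libraries of each group. Over the read shares, named sites and named genes it marked 8 values, from 6 libraries, in 92 checks, where chance marks about 1 in 20. Obesity library 4 had 0.573% of its reads at misc_RNA sites, and the rest of its group 0.626% to 0.634%. Obesity library 2 had 2810 CPM at the main Rn45s site, against 1967 to 2004, and 52.8 CPM for Rmrp summed over both sites, against 34.56 to 35.39. Control library 3 had 165 CPM at the Rn45s site at 46645087, against 109.9 to 116.5. Obesity library 3 had 15.7 CPM at the Rab3gap1 site, against 2.83 to 4.49, and 3.04 CPM at the RGD1559747 site, against 0.561 to 0.693. Obesity library 1 had 1.7 CPM at the RGD1562690 site, where the other obesity libraries had 0. Control library 1 had 152 CPM for LOC100362999, against 20.32 to 42.56 in the other control libraries.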

How the results depend on the processing

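At an adjusted p under 0.1 the count of member sites, genes and genes with changed usage was 0 under each alternative run. At an unadjusted p under 0.05 the counts moved. With the replicate block, sites went from 19 to 38, genes from 14 to 26 and usage from 1 to 3. With filterByExpr, which kept 195 of 463 members, 9 sites (4.62%) were under 0.05, against 4.52% of the sites kept. Leaving out 1 library gave 12 to 29 sites, 12 without control library 2 and 29 without obesity library 2, where the share of all sites went from 3.14% to 2.96% and 5.52%. It gave 8 to 17 genes. The 8 came without control library 3 (4.62%, against 3.54% of all genes). The 17 came without obesity library 2 (9.83%, against 9.72% of all genes). By usage it gave 1 to 2 genes. The 2 (2.33%) came without obesity library 1, 2 or 4, against 2.15%, 3.71% and 2.53% of all genes tested for usage. The share differences kept their sign under each alternative, although that of rRNA went from -0.0885 to -0.00381 percentage points without control library 1 and that of miRNA to 0.000382 without obesity library 3. The DESeq2 Wald test was not run for usage.

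The 40 named fold changes kept their direction in 27 cases under each alternative run. The main Huwe1 site, at -0.01, turned to 0.0238 with DESeq2 size factors, 0.0297 with filterByExpr and 0.0239 by DESeq2. Leaving out 1 library turned the rest, with ranges of -0.076 to 0.297 for the main Mir219-2 site, -0.0493 to 0.243 for Mir1188, -0.0389 to 0.352 for Mir770, -0.13 to 0.103 for Huwe1, -0.234 to 0.463 for the main Rn18s site and -0.284 to 0.191 for Trnar-ucu. For genes the ranges were -0.647 to 0.116 for Mir29b1, -1.25 to 0.101 for LOC100362999, -0.566 to 0.201 for Mir125b1, -0.484 to 0.0337 for LOC100910850, -0.24 to 0.55 for Rn18s, -0.504 to 0.0632 for LOC102551606 and -0.706 to 0.113 for Mir125a. The replicate block changed no call at the adjusted threshold. The cause of these moves was not tested. Leaving out 1 library moved 19 of the 27 that kept their direction by over 1.5 times at least once. The median member had 68 reads over 8 libraries, and at 8.5 reads a library counting alone gives a coefficient of variation of 0.343. The median biological coefficient of variation of the members, which by edgeR leaves counting out, was 0.744.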

Other observations

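Other misc_RNA genes, not named by the rule, showed how reads of 1 gene spread over its length. Huwe1 had 22 sites, of which the main one held 66.52% of the reads, and 1 of them lay on the opposite strand, where its assignment is uncertain. At a Huwe1 site with 572 reads (chrX:21559581-21559639) the libraries had 3, 110, 50 and 107 reads in control and 8, 82, 46 and 166 in obesity, so that both libraries numbered 1 were the lowest. The second LOC100362895 site with 314 reads (chr5:143865796-143865812) had 0, 165, 3 and 4 reads in control and 7, 131, 4 and 0 in obesity, nearly all in the libraries numbered 2. A LOC100910850 site with 100 reads (chr13:93560707-93560724) had 2, 53, 1 and 0 against 2, 40, 1 and 1, again in the libraries numbered 2. What the libraries of a number share was not tested.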
